A study of Caenorhabditis elegans with 8 samples.

Results

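The spe genes (named for defective spermatogenesis) and fer genes (named for defective fertilization) of Caenorhabditis elegans were found in mutants whose hermaphrodites make sperm that do not work. All coding genes with a spe or fer symbol were taken except spe-44, which encodes a transcription factor, and this gave 29 genes among 19983 coding genes in the count tables. By known step, 9 act in spermatocytes, 9 in spermatid activation, 8 in fertilization and 1 in the embryo after fertilization, and 2 were not assigned to a step. RNA of dissected gonads of young adults had been sequenced in 3 genotypes. These were the mutant hda-3(ok1991) with 2 libraries, the mutant sin-3(syb2172) with 3 and the wild type (wt) with 3. HDA-3 is one of the class I histone deacetylases of the worm, and SIN-3 is a scaffold on which such deacetylases assemble into a co-repressor complex. Each library was made from the gonads of 9 to 12 animals, so that a value is that of a pool, and the labels name no further allele or treatment and give the age only as young adult.

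Sperm of the nematode are made in a short period before the germ line switches to oocytes, and are then stored in the spermatheca. In spermatocytes the major sperm protein (MSP) is packed with membranes into fibrous body-membranous organelles, and after the meiotic divisions the spermatids bud off and leave most of the cytoplasm behind in a residual body. A signal then activates the round spermatid, which fuses its membranous organelles with the plasma membrane and extends an MSP-driven pseudopod. Proteins on the activated sperm are needed to bind and fuse with the oocyte. Transcription ends before the spermatids form, so genes of all these steps are transcribed in spermatocytes.

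Reads counted on genes numbered 14550417 to 24389531 per library, and 5109782 to 13266433 of them lay outside nuclear ribosomal RNA genes, fewest in sin-3 replicate 3. Levels are given as CPM, read counts scaled to 1000000 reads of a library's TMM-adjusted size. At this depth 1 read corresponds to 0.0191 to 0.0968 CPM. The sin-3 gene had 0, 2 and 1 reads in sin-3 libraries and 606 to 1274 in wt. The hda-3 gene was at 13.9 and 18.7 CPM in hda-3 libraries and at 28.2 to 39.1 CPM in wt; these counts cover the whole gene, and reads in the deleted part were not counted apart, so the lower level does not check the deletion itself. Markers of the germ line (8 of 8) and of oocytes (14 of 14) had reads in every library. The labels give 3 replicates for every strain, of which 2 hda-3 libraries were analysed here. They call the replicates biological and independent without naming cultures, so p-values measure the spread between these libraries.

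In hda-3 gonads, most genes for sperm assembly in the spermatocyte and for activation of the spermatid were far above their wt levels. Of the 8 fertilization genes, 6 were tested and 2 called higher. Both hda-3 libraries still lay above all wt libraries in 5 of these 8, beside 25.4% of all tested genes. Of the 29 genes, 26 passed the filter on low counts, and 17 of these were called higher in hda-3 than in wt (edgeR quasi-likelihood test, Benjamini-Hochberg adjusted p under 0.05), where 13.5% of all 10302 genes tested were. None was called lower, also by DESeq2 and at an unadjusted p under 0.05 (0 genes), beside 4.85% of all genes. In dissected gonads, a change in the number of cells of a type and a change in RNA per cell cannot be told apart. Only 6 of the 29 genes would pass that filter in wt libraries alone, so most of the called genes entered the test through their reads in a mutant. Of these 6, 3 were called higher (spe-6, spe-15 and spe-41), where 1.66% of the 6565 genes that pass in wt alone were. In sin-3, 0 of the 6 were called higher (unadjusted p under 0.05 in 0) and 1 lower, beside 2.36% and 7.68%. Both hda-3 libraries lay above all 3 wt libraries in 23 of the 29 genes, against 25.4% of all tested genes, and in 0 of the 29 did both lie below. In sin-3 gonads 0 of the genes were called higher by edgeR and by DESeq2, with 1 gene at an unadjusted p under 0.05, and 1 gene, spe-5, was called lower, where 2.68% of all tested genes were called higher and 4.92% lower. Both comparisons use the same wt libraries. The median log2 fold change of the 26 genes was 3.10 for hda-3 over wt and 0.51 for sin-3 over wt, beside -0.02 and 0.12 over all tested genes. With spe-19, which had no read in wt, set to its ratio against a floor of 3 wt reads, the medians were 3.10 and 0.40. Since the filter favours genes that are high in a mutant, these medians and counts are descriptions.

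**Figure D1:**
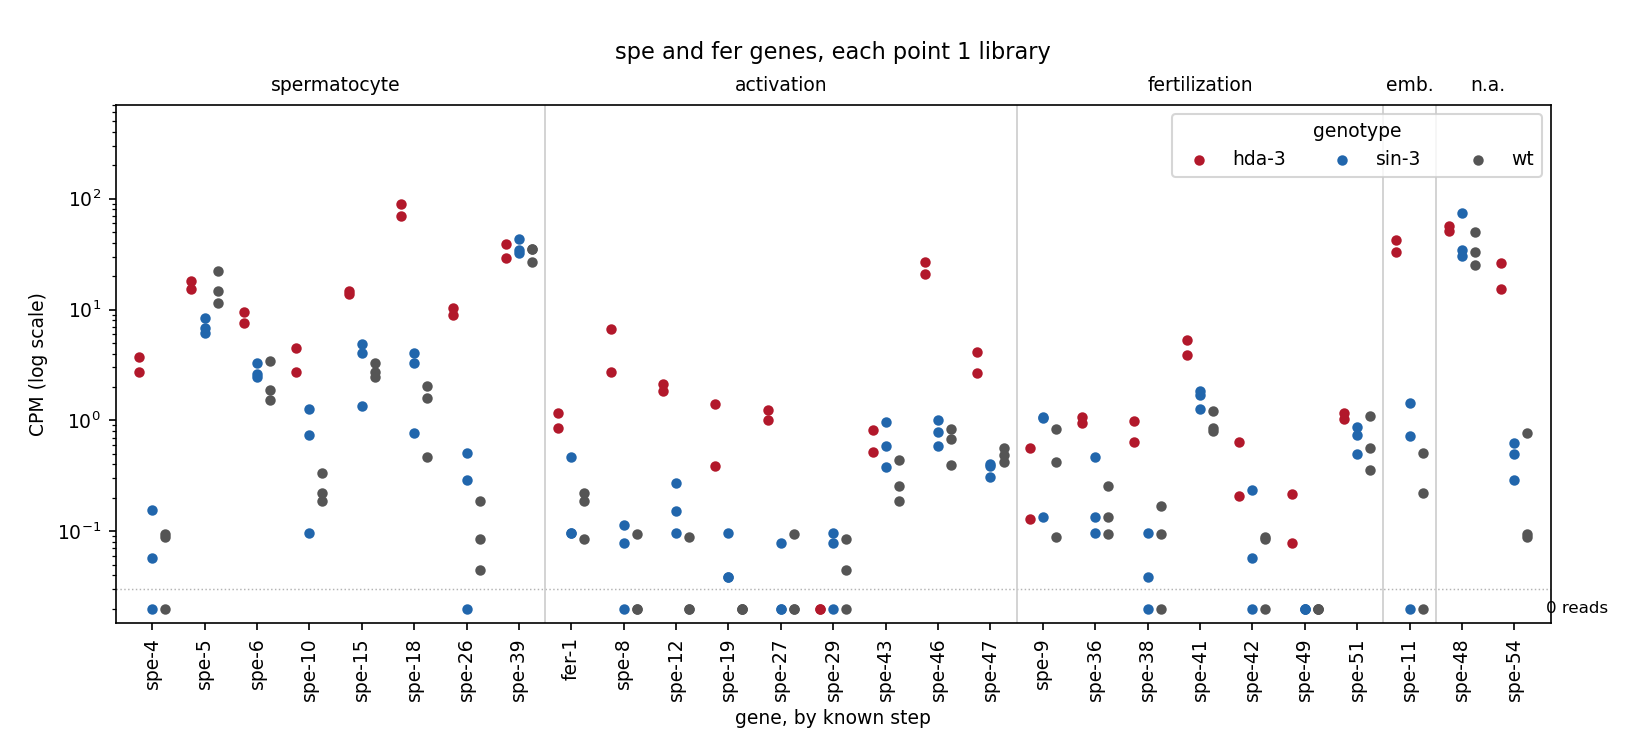
Level of 27 of the 29 genes in CPM on a log scale, in order of known step (emb., embryo; n.a., not assigned); each point is 1 library of hda-3 (2), sin-3 (3) or wt (3), and points under the dotted line had 0 reads. The hda-3 points stand above those of both other genotypes for most spermatocyte and activation genes, and within their range for spe-39 and spe-9.

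The spermatocyte group held 7 genes called higher in hda-3 out of 9, all of which were tested, beside 13.5% of all tested genes. Of the called genes, spe-6 and spe-15 pass the filter in wt alone, and the others entered the test through a mutant. The gene at the highest level was spe-18 (WBGene00009308; chromosome II, 13151459 to 13153399, WBcel235), whose product organises MSP into fibrous bodies. The libraries gave 88.6 and 70.4 CPM of spe-18 in hda-3, 0.775, 4.08 and 3.29 CPM in sin-3 and 1.61, 0.467 and 2.04 CPM in wt. Both hda-3 libraries stood far above every other library, and sin-3 and wt overlapped. Its log2 fold change over wt was 5.78 (SE 0.61, adjusted p = 1.55e-04). The gene spe-26 (chromosome IV, 10389578 to 10391927) encodes a kelch-repeat protein needed for spermatocytes to divide. In hda-3 libraries spe-26 was at 10.4 and 8.93 CPM, in sin-3 at 0, 0.506 and 0.287 CPM and in wt at 0.0846, 0.187 and 0.0443 CPM. Between 1 and 2 reads per library were found in wt, so that its RNA was close to the limit of detection there; the log2 fold change was 6.64 (SE 0.77, adjusted p = 1.24e-04).

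The membrane system of the fibrous bodies was represented by spe-4 and spe-10, among others. The presenilin family gene spe-4 had 105 and 87 reads in hda-3, 0, 4 and 3 reads in sin-3 and 0, 1 and 2 reads in wt. Its pooled level in hda-3 was 46.6 times (95% interval 15.7 to 228) that in wt, and the edgeR adjusted p was 5.56e-04. The gene was therefore detected in wt by 3 reads or fewer in all. The palmitoyltransferase gene spe-10 showed a wider spread among sin-3 libraries. The level of spe-10 was 4.53 and 2.71 CPM in hda-3, 1.26, 0.739 and 0.0955 CPM in sin-3 and 0.338, 0.187 and 0.221 CPM in wt. Both hda-3 libraries lay above all others, 2 of the 3 sin-3 libraries lay above wt and the third below it. The log2 fold change was 3.85 (SE 0.85, adjusted p = 0.00722); without hda-3 replicate 4 it was 3.44 (adjusted p = 0.0506).

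Spermatocyte genes with more reads in wt were also called, with smaller fold changes. The casein kinase 1 family gene spe-6 is needed for MSP assembly and for holding activation in check. The libraries gave 7.51 and 9.58 CPM of spe-6 in hda-3, 3.29, 2.45 and 2.62 CPM in sin-3 and 1.52, 1.87 and 3.46 CPM in wt. Both hda-3 libraries lay above all others, while sin-3 and wt overlapped. The log2 fold change over wt was 1.87 (SE 0.41, adjusted p = 0.00671); without hda-3 replicate 5 it was 1.69 (adjusted p = 0.0624). The gene spe-15 encodes a myosin VI that helps to part cell components between the spermatid and the residual body. In hda-3 libraries spe-15 was at 13.8 and 14.6 CPM, in sin-3 at 4.07, 4.86 and 1.34 CPM and in wt at 2.71, 3.27 and 2.48 CPM. All 3 wt libraries lay close together below hda-3, and sin-3 replicate 5 lay below them. The change was 2.34 (SE 0.47, adjusted p = 0.00377) for hda-3 over wt and 0.26 (SE 0.44, adjusted p = 0.736) for sin-3 over wt.

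The remaining members of this group were already at a high level in wt. The gene spe-39, whose product acts in vesicle trafficking in many cell types, had no group apart from the others. The level of spe-39 was 29.4 and 39.2 CPM in hda-3, 34.5, 32.5 and 43.3 CPM in sin-3 and 26.979, 34.9 and 35.3 CPM in wt. Its log2 fold change was 0.082 (SE 0.22, adjusted p = 0.838) for hda-3 over wt and 0.18 (SE 0.20, adjusted p = 0.589) for sin-3 over wt, with 3 overlapping groups. For spe-5, which encodes a B subunit of the vacuolar proton pump, hda-3 and wt overlapped and sin-3 lay below both. The libraries gave 15.2 and 17.998 CPM of spe-5 in hda-3, 6.20, 6.77 and 8.41 CPM in sin-3 and 14.8, 11.5 and 22.1 CPM in wt. The change was 0.035 (SE 0.31, adjusted p = 0.950) for hda-3 over wt and -1.18 (SE 0.28, adjusted p = 0.0303) for sin-3 over wt. When wt replicate 3 was left out, the sin-3 change of spe-5 was -1.24 with an adjusted p of 0.0773. Leaving out wt replicate 5 gave -0.88 (0.126 adjusted) and leaving out sin-3 replicate 4 gave -1.11 (0.112 adjusted), so the call was lost in these fits, and also in a fit of sin-3 and wt libraries alone (-1.09, adjusted p = 0.0556). Exons of spe-5 share 68 bases with ift-20 on the opposite strand, and without a stated strand setting reads of the pair cannot be told apart there.

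Spermatid activation was represented by 9 genes, of which 8 were tested and 6 called higher in hda-3, beside 13.5% of all tested genes. All the called genes of this group entered the test through a mutant. The signal that activates spermatids of hermaphrodites runs through the SPE-8 group, which includes the tyrosine kinase SPE-8, the transmembrane proteins SPE-12, SPE-19 and SPE-29, and SPE-27 and SPE-43. The kinase gene spe-8 had 257 and 63 reads in hda-3, 0, 2 and 6 reads in sin-3 and 0, 1 and 0 reads in wt. The ratio of pooled levels of hda-3 over wt was 233 (95% interval 41.5 to 9237.4), with an edgeR adjusted p of 2.47e-04. The 2 hda-3 libraries differed by a factor of 2.46 in CPM, the widest gap in that direction among the called genes. The gene spe-12 had 82 and 43 reads in hda-3, 1, 7 and 8 reads in sin-3 and 0, 0 and 2 reads in wt. Its pooled ratio of hda-3 over wt was 45.5 (95% interval 12.3 to 380.2), with an edgeR adjusted p of 9.81e-04. Every sin-3 library had a read of spe-12 and lay between the wt and hda-3 levels. With 1 read in wt in all, spe-27 had 39 and 29 reads in hda-3, 0, 2 and 0 reads in sin-3 and 0, 1 and 0 reads in wt. Its pooled ratio was 49.5 (95% interval 8.60 to 1985.3), with an edgeR adjusted p of 0.0103, and the adjusted p was 0.0588 with wt replicate 5 left out and 0.0521 with hda-3 replicate 5 left out.

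The other members of the SPE-8 group behaved differently from each other. The transmembrane protein gene spe-19 had 15 and 33 reads in hda-3, 1, 1 and 2 reads in sin-3 and 0, 0 and 0 reads in wt. Taking a floor of 3 reads over the wt group, its pooled ratio of hda-3 over wt was 11.7. That ratio leaves out the counting error of the hda-3 reads, so it is not a lower limit. The edgeR adjusted p was 0.00655, with a log2 fold change of 7.45 (6.29 without hda-3 replicate 5). This call did not hold in every fit without 1 library. For spe-43 the hda-3 libraries lay above wt but within the sin-3 range. In hda-3 libraries spe-43 was at 0.518 and 0.816 CPM, in sin-3 at 0.581, 0.972 and 0.382 CPM and in wt at 0.254, 0.187 and 0.443 CPM. Its change was 1.08 (SE 0.70, adjusted p = 0.318) for hda-3 over wt and 1.04 (SE 0.66, adjusted p = 0.334) for sin-3 over wt. The small gene spe-29 was not tested, with 0 reads in both hda-3 libraries, 1, 2 and 0 in sin-3 and 1, 0 and 1 in wt. Of its 343 exonic bases, 117 are shared with gon-1 on the opposite strand.

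Downstream and parallel factors of activation included spe-46, spe-47 and fer-1. The gene spe-46, which encodes a membrane-spanning protein, had the smallest adjusted p of the 26 tested genes. The level of spe-46 was 26.8 and 20.7 CPM in hda-3, 0.581, 1.01 and 0.783 CPM in sin-3 and 0.677, 0.840 and 0.399 CPM in wt. The hda-3 libraries stood far above every other library, with a log2 fold change of 5.28 (SE 0.41, adjusted p = 3.10e-05). The gene spe-47, whose product has an MSP domain and holds activation in check, was called with a smaller fold change. The libraries gave 2.69 and 4.17 CPM of spe-47 in hda-3, 0.387, 0.311 and 0.401 CPM in sin-3 and 0.423, 0.560 and 0.487 CPM in wt. All hda-3 values lay above and all sin-3 values below those of wt; the change was 2.79 (SE 0.50, adjusted p = 0.00180) for hda-3 and -0.41 (SE 0.51, adjusted p = 0.637) for sin-3. For the ferlin gene fer-1, needed for fusion of the membranous organelles, the change missed the threshold. In hda-3 libraries fer-1 was at 1.16 and 0.859 CPM, in sin-3 at 0.0968, 0.467 and 0.0955 CPM and in wt at 0.0846, 0.187 and 0.221 CPM. Both hda-3 libraries lay above all others, and the log2 fold change was 2.54 (SE 0.83, adjusted p = 0.0545). The gene was called with other size factors (edgeR adjusted p = 0.0475) and with only the 2 groups fitted (0.00631). It was also called without sin-3 replicate 3 (0.0489), 4 (0.0218) or 5 (0.0126), but not in the other settings tried.

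**Figure D2:**
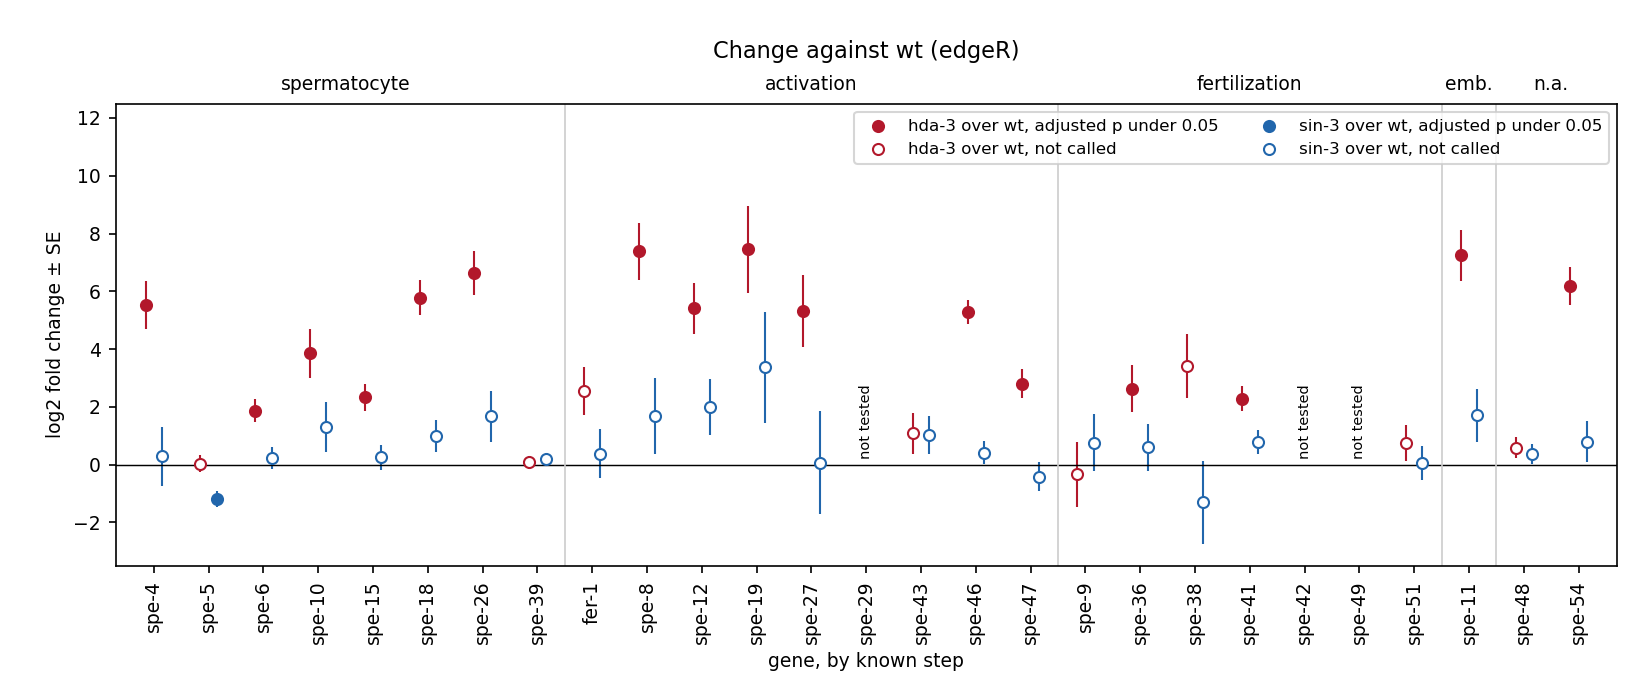
Log2 fold change over wt of 27 of the 29 genes, in order of known step, for hda-3 (left of each pair) and sin-3; bars are ± 1 SE from the edgeR fit, filled points had an adjusted p under 0.05, and 3 genes were not tested. Filled hda-3 points stand at 1.87 to 7.45 and the only filled sin-3 point is spe-5 at -1.18; values of genes with 3 or fewer wt reads depend on the prior count of the fit.

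Genes of the fertilization step were at low levels in every genotype. Of these 8 genes, 6 were tested and 2 were called higher in hda-3, beside 13.5% of all tested genes. Of the called genes, spe-41 passes the filter in wt alone and spe-36 entered the test through a mutant. The gene spe-41 (WBGene00004976; chromosome III, 3439011 to 3444210), also named trp-3, encodes a TRPC calcium channel that reaches the sperm surface on activation. The level of spe-41 was 3.91 and 5.28 CPM in hda-3, 1.26, 1.83 and 1.68 CPM in sin-3 and 0.846, 1.21 and 0.797 CPM in wt. The 3 genotypes did not overlap, with hda-3 highest and wt lowest, and the change was 2.28 (SE 0.44, adjusted p = 0.00282) for hda-3 and 0.77 (SE 0.41, adjusted p = 0.251) for sin-3. The gene spe-36 encodes a secreted EGF-motif protein of sperm. The libraries gave 1.06 and 0.945 CPM of spe-36 in hda-3, 0.0968, 0.467 and 0.134 CPM in sin-3 and 0.254, 0.0933 and 0.133 CPM in wt. Both hda-3 libraries lay above all others, with a log2 fold change of 2.63 (SE 0.81, adjusted p = 0.0420). That call was lost in 5 of 8 fits without 1 library, with adjusted p up to 0.238 (without hda-3 replicate 4), and exons of the gene share 68 and 62 bases with 2 neighbouring coding genes. For spe-38, which encodes a sperm membrane protein needed for gamete interaction, there were 38 and 15 reads in hda-3, 1, 1 and 0 reads in sin-3 and 2, 1 and 0 reads in wt. The pooled ratio of hda-3 over wt was 12.9 (95% interval 4.17 to 64.4), but the edgeR adjusted p was 0.0526. The gene was called with no filter on low counts (0.0297), with the replicate number as a block (0.0440) and with only the 2 groups fitted (0.00669). It was also called without sin-3 replicate 3 (0.0418) or 5 (0.00906), but not in the other settings tried. Exons of spe-38 share 58 bases with impt-1 on the same strand.

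The gene spe-9, whose product has EGF repeats and gave its name to this class of fertilization genes, was not called. In hda-3 libraries spe-9 was at 0.129 and 0.558 CPM, in sin-3 at 1.07, 1.05 and 0.134 CPM and in wt at 0.423, 0.840 and 0.0886 CPM. Values spread widely within every group and all 3 overlapped; the log2 fold change was -0.34 (SE 1.11, adjusted p = 0.867) for hda-3 over wt. The gene spe-51, which encodes a secreted sperm protein, was detected in every library. The level of spe-51 was 1.04 and 1.16 CPM in hda-3, 0.871, 0.739 and 0.497 CPM in sin-3 and 1.10, 0.560 and 0.354 CPM in wt. Groups of hda-3 and wt overlapped, and the log2 fold change of hda-3 over wt was 0.74 (SE 0.62, adjusted p = 0.445). The pair spe-42 and spe-49, which encode DC-STAMP domain proteins that act together, was not tested. There were 8 and 15 reads in hda-3, 0, 6 and 3 reads in sin-3 and 1, 0 and 2 reads in wt for spe-42, and its pooled ratio of hda-3 over wt was 5.59 (95% interval 1.69 to 29.1). For spe-49 there were 3 and 5 reads in hda-3 and 0 in all 6 other libraries. With a floor of 3 reads over the wt group, its pooled ratio of hda-3 over wt was 1.94. That ratio leaves out the counting error of the hda-3 reads, so it is not a lower limit. Shared exon bases with other coding genes were also found for spe-49 (63 with srn-1), spe-9 (8 with C17D12.5) and, in the activation group, spe-27 (61 with C06E7.88).

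Beyond fertilization, spe-11 (WBGene00004965; chromosome I, 5330578 to 5332169) encodes a protein that sperm bring into the egg, where the embryo needs it for its shell and first divisions. The libraries gave 42.2 and 33.2 CPM of spe-11 in hda-3, 0, 1.44 and 0.726 CPM in sin-3 and 0.507, 0 and 0.221 CPM in wt. Both hda-3 libraries stood far above the rest; wt had 6, 0 and 5 reads, and the change was 7.24 (SE 0.88, adjusted p = 3.13e-04). In sin-3 the gene had 0, 37 and 38 reads, and the change was 1.70 (SE 0.92, adjusted p = 0.265). The 2 genes not assigned to a step, spe-54 and spe-48, differed from each other. In hda-3 libraries spe-54 was at 26.4 and 15.4 CPM, in sin-3 at 0.290, 0.622 and 0.497 CPM and in wt at 0.761, 0.0933 and 0.0886 CPM. The level of spe-48 was 51.1 and 57.2 CPM in hda-3, 30.5, 34.6 and 74.2 CPM in sin-3 and 32.8, 25.2 and 49.6 CPM in wt. In spe-54 the hda-3 libraries stood apart from all others, with a log2 fold change over wt of 6.17 (SE 0.66, adjusted p = 8.36e-05). In spe-48 both hda-3 libraries lay above wt but within the sin-3 range, and the change of 0.59 (SE 0.38, adjusted p = 0.309) was not called.

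**Figure D3:**
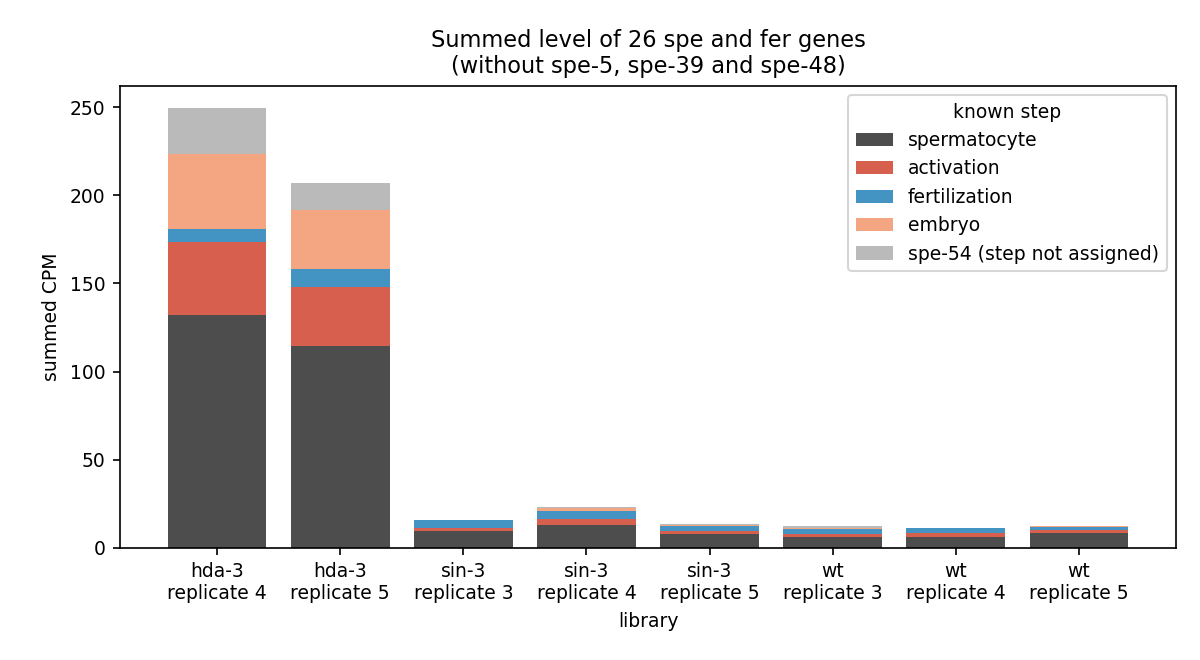
Summed CPM in each library of 26 of the 29 genes, stacked by known step; spe-5, spe-39 and spe-48 are left out because they had high levels in every library, a choice made after their values were seen. The hda-3 libraries reach 249.7 and 207.0 CPM, the sin-3 libraries 13.6 to 23.2 CPM and the wt libraries 11.5 to 12.2 CPM.

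The order of levels among the genes differed between genotypes. Per length of exon, the highest means in hda-3 were spe-18 at 64.6, spe-48 at 42.8, spe-11 at 38.6, spe-46 at 22.5 and spe-54 at 21.0 CPM per kb. The ranges over libraries overlapped between spe-48 (40.3 to 45.2) and spe-11 (34.0 to 43.2), and between spe-46 (19.6 to 25.3) and spe-54 (15.5 to 26.5), so those neighbours were not separated. In wt the highest means were spe-48 at 28.3, spe-39 at 16.7 and spe-5 at 9.67 CPM per kb, followed by spe-6 at 1.80. The genes spe-48, spe-39 and spe-5 made up 27.7 and 35.6% of the summed CPM of the 29 genes in hda-3, 76.1 to 90.3% in sin-3 and 86.05 to 89.8% in wt. Fertilization genes stayed at or under 1.69 CPM per kb in hda-3, and spe-41 was the highest of them. The long gene fer-1, at 0.161 CPM per kb, was the third lowest in hda-3.

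**Figure D4:**
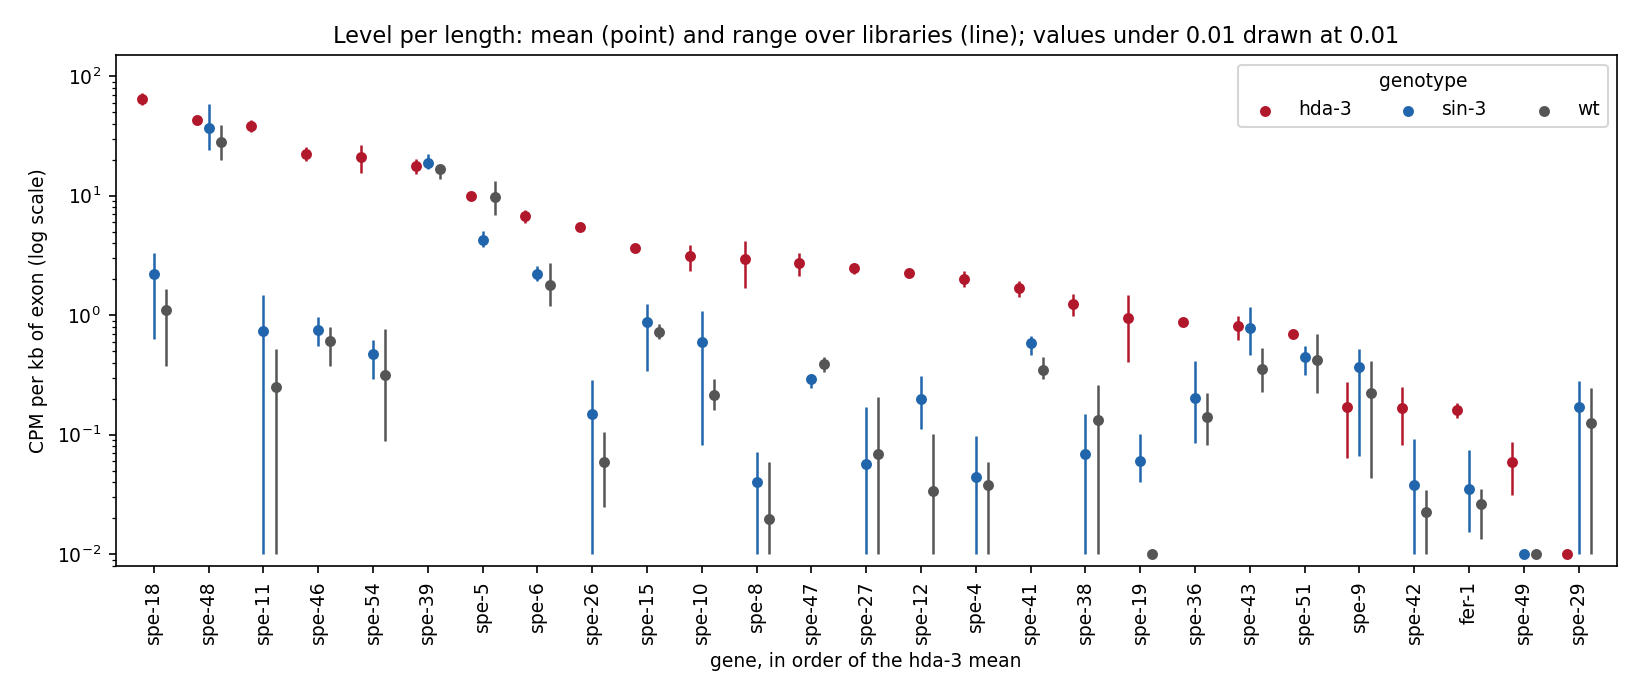
Level of 27 of the 29 genes per kb of exon on a log scale, in order of the hda-3 mean; points are means and lines the range over the 2 hda-3, 3 sin-3 and 3 wt libraries, and values under 0.01 are drawn at 0.01. The hda-3 order runs from spe-18 at 64.6 to spe-49 at 0.0587 CPM per kb and spe-29 at 0.

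The mutants were also compared with each other, in a comparison that shares libraries with both comparisons above. Of the 26 tested genes, 18 were called higher in hda-3 than in sin-3, where 12.7% of all tested genes were. None was called lower, also by DESeq2 and at an unadjusted p under 0.05 (0 genes), beside 2.59%. Of the 6 genes that pass the filter in wt alone, 4 were called higher, beside 2.73% of such genes. For spe-18 the change was 4.79 (SE 0.56, adjusted p = 3.35e-04), for spe-46 4.86 (SE 0.38, adjusted p = 4.13e-05) and for spe-8 5.72 (SE 0.78, adjusted p = 3.54e-04). In each of the 3 genes both hda-3 libraries lay above all sin-3 libraries. Genes called here and not against wt were spe-5 and spe-38. The change of spe-5 was 1.21 (SE 0.30, adjusted p = 0.0154). The gene spe-36 was called against wt but not here, with a change of 2.04 (SE 0.74, adjusted p = 0.0955). In spe-38 the pooled ratio of hda-3 over sin-3 was 37.8 (95% interval 9.97 to 320.5), with an edgeR adjusted p of 0.0142. Calls of spe-5, spe-6, spe-10, spe-19, spe-38 and spe-41 were lost in at least 1 fit without 1 library, and that of spe-10 (2.55, adjusted p = 0.0428) held in 2 of 8 such fits; without hda-3 replicate 4 it was 2.13 (adjusted p = 0.264).

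In sin-3 gonads most of the genes had few reads, as in wt. All 3 sin-3 libraries lay above all wt libraries in 4 of the 29 genes (among them spe-12, spe-19 and spe-41), beside 14.7% of all tested genes, and below in 2 (spe-5 and spe-47), beside 14.4%. Of the 29 genes, 10 or more reads were found for 25 and 27 in hda-3, 8, 17 and 14 in sin-3 and 8, 6 and 9 in wt. Libraries of sin-3 differed from each other: 7, 1 and 4 of the 29 genes had 0 reads in replicates 3, 4 and 5, and 7, 6 and 6 did in wt. Without sin-3 replicate 3, the library with most ribosomal RNA reads (79.0%), 2 genes were called higher, spe-11 (2.08, adjusted p = 0.0400) and spe-18 (1.34, adjusted p = 0.0353). The same 2 were called with no filter on low counts. Calls over all genes, in both directions together, also rose in these settings. They went from 783 to 1453 without sin-3 replicate 3 and to 1374 with no filter.

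Other genes of sperm development were examined in the same fit. From 25 symbols listed, 22 coding genes outside the spe and fer genes were found, and 18 were tested. In hda-3, 13 were called higher (13.5% of all tested genes were), with a median log2 fold change of 4.54. Called genes such as htas-1, comp-1 and alg-4 had 5 or fewer reads in each wt library, so they entered the test through a mutant. How many pass the filter in wt alone was not counted for this list or for the MSP genes below. The counts and medians are therefore descriptions. In sin-3, 2 were called higher and 1 lower (2.68 and 4.92% of all tested genes), with a median of 0.74. Genes called higher in hda-3 included the Argonaute genes alg-3 (4.69) and alg-4 (6.33) of the spermatogenesis small RNA pathway. The near-identical phosphatase genes gsp-3 (6.92) and gsp-4 (7.53) were also among them. The sperm histone gene htas-1 had 522 and 352 reads in hda-3, 0, 5 and 13 in sin-3 and 2, 0 and 1 in wt. The GATA factor gene elt-1 (2.14) and fog-3 (2.97), which directs germ cells to the sperm fate, were higher too. Those not called in hda-3 were fog-1 (0.28), cpb-1 (-0.30), wee-1.3 (-0.20), swm-1 (-1.05) and zipt-7.1 (-0.61). The calls in sin-3 were, higher, fog-1 (0.84, edgeR adjusted p = 0.0199), which acts with fog-3 in sperm fate, and swm-1 (2.12, adjusted p = 0.0254), which encodes a protease inhibitor that restrains activation. The gene cpb-1, for an RNA-binding protein needed in spermatocytes, was lower in sin-3 (-1.73, adjusted p = 0.0262). Among the 31 genes for MSP itself, 29 were tested and 29 were called higher in hda-3 (edgeR), with a median of 6.82, beside 0.76 in sin-3. They summed to 3597 and 3022 CPM in hda-3, 3.20, 77.9 and 61.1 CPM in sin-3 and 54.9, 24.7 and 17.01 CPM in wt. Reads without a unique alignment were set apart from the gene counts (5.57 and 4.70% in hda-3). Reads that fit several MSP copies, or both gsp-3 and gsp-4, may therefore be missing from these values.

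Other markers moved between the same libraries. Oocyte markers (14 genes) summed to 5311 and 5267 CPM in hda-3, 18731, 12260.3 and 5459.6 CPM in sin-3 and 18418, 21249 and 10594 CPM in wt. In 13 of the 14, both hda-3 libraries lay below all wt libraries, beside 26.7% of all tested genes, and 2 were called lower, perm-2 (-4.22) and perm-4 (-4.12), beside 4.85% of all tested genes. Intestine markers (8 genes) summed to 226.0 and 144.0 CPM in hda-3, 26.2, 85.6 and 75.1 CPM in sin-3 and 37.7, 20.9 and 4.96 CPM in wt, and 5 of the 7 tested were called higher in hda-3, beside 13.5% of all tested genes, among them the yolk protein genes vit-5 (2.32) and vit-6 (3.22). The same limit of the filter holds for this list, where the called gene lys-7 had 2, 0 and 0 reads in wt. The intestinal factor gene elt-2 had 68 and 12 reads in hda-3, 3, 13 and 40 in sin-3 and 10, 6 and 6 in wt. Markers of sheath and spermatheca (10 genes) summed to 115.1 and 136.9 CPM in hda-3, 225.0, 249.6 and 178.5 CPM in sin-3 and 163.0, 273.3 and 186.7 CPM in wt. In hda-3, 3 of these 10 were called lower, the gap junction genes inx-8 (-3.10) and inx-9 (-2.18) and the collagen gene emb-9 (-1.27). The myosin gene nmy-1 (1.16) was the 1 called higher. Of all tested genes 4.85% were called lower and 13.5% higher. In sin-3, emb-9 (1.41) and nmy-1 (2.14) were called higher, beside 2.68% of all tested genes. Body muscle markers (5 genes) summed to 259.3 and 86.5 CPM in hda-3, 195.1 to 312.3 CPM in sin-3 and 103.8 to 139.9 CPM in wt. Of the genes of these lists that were tested, only the intestine gene lys-7 was without reads in any library (wt replicates 4 and 5), and germline markers (8 genes) summed to 813.9 and 985.6 CPM in hda-3, 1537, 1189 and 863.2 CPM in sin-3 and 1257, 1547 and 1522 CPM in wt. Of the 8 germline markers 1, gld-1 for an RNA-binding protein, was called lower in hda-3 (-0.71), beside 4.85% of all tested genes. Also called in sin-3, both higher, were the oocyte marker egg-3 (0.73) and the intestine marker lys-7 (5.15). These sums depend on the scaling. Without TMM factors, germline markers took up 0.268 and 0.305% of non-ribosomal reads in hda-3 and 0.187, 0.271 and 0.279% in wt. These groups overlapped, as did those of sheath and spermatheca (0.0379 and 0.0423% against 0.0243, 0.0479 and 0.0343%). Oocyte markers stayed lower in hda-3 (1.75 and 1.63% against 2.74, 3.72 and 1.94%), and intestine markers higher. Single markers were not compared on this scale. The part of these marker shifts in the results for spe and fer genes was not tested.

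Values of the 2 hda-3 libraries could be compared gene by gene, and 12 of the 17 calls against wt held in all 8 fits without 1 library. Among the 17 genes the CPM ratio of replicate 4 to replicate 5 ran from 0.274 in spe-19 to 2.46 in spe-8.

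Scaling of the libraries mattered for levels. Scaled to 1000000 reads outside ribosomal RNA and without TMM factors, the 26 genes other than spe-5, spe-39 and spe-48 summed to 821.8 and 639.5 in hda-3, 31.9, 66.5 and 53.5 in sin-3 and 18.001, 20.1 and 22.4 in wt. On that scale the median log2 ratio over wt of the 26 tested spe and fer genes was 3.53 in hda-3 and 1.10 in sin-3. The median of all tested genes was also higher than in wt, by 0.87 in hda-3 and 0.88 in sin-3. Relative to this shift, the median of the 26 genes was 2.66 in hda-3 and 0.23 in sin-3. In the authors' deposited table for hda-3, 27 of the 29 genes were listed and 15 had an adjusted p under 0.05, all of them higher, beside 12.53% of its genes with an adjusted p. Among the genes called here, spe-19 (DESeq2 adjusted p = 0.467) and spe-36 (0.121) did not pass there. The authors' deposited table for sin-3 listed 23, of which 0 were higher and 1, spe-5, was lower (-1.16, adjusted p = 0.0128).

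The genes are unevenly placed in the genome. Of the 29, 13 lie on chromosome I, 8 on IV, 5 on V, 2 on III and 1 on II, and 0 on X, where 13.7% of coding genes lie; chromosome I holds 14.4% of coding genes. Genes called higher in hda-3 numbered 8 of 13 on I, 4 of 8 on IV, 2 of 5 on V, 2 of 2 on III and 1 of 1 on II. Over all chromosomes 13.5% of all tested genes were called higher, and this share was not computed by chromosome. The totals include genes that were not tested, spe-29 on IV and spe-42 and spe-49 on V. The counts were not tested for a difference between chromosomes.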

How the data were processed

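Gonad RNA was measured in 8 libraries (2 hda-3, 3 sin-3 and 3 wt) by Smart-seq, with single reads of 50 bases, per the labels' protocols. The deposited files hold raw read counts per gene. The tools named per the submitters' processing notes are HTSeq 0.7.2, STAR 2.7.3a, DESeq2 1.36.0 and fastp 0.20.1. Settings, genome build and strand setting: not given in the sources used here. The authors also deposited a table for each mutant against wt with a mean normalised signal, a log2 fold change, p-values and a test score from DESeq2, per the file headers, and these were used only where named. Lines that name no gene did not enter library sizes or the model. These were no feature (1.06 to 2.27%), ambiguous (0.673 to 1.55%) and alignment not unique (3.03 to 5.57%).

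Identifiers were matched to WBcel235 (Ensembl release 115), and all 29 genes were found. edgeR 4.0.16 in R 4.3.3 was run on all genes in 1 quasi-likelihood model of all 8 libraries with a term per genotype, TMM factors and filterByExpr (minimum count 10, minimum total 15), with Benjamini-Hochberg adjustment over 10302 genes. The procedure was tested on simulated counts. SE is the absolute log2 fold change over the root of F. Where wt had 1 to 3 reads in all, the ratio of reads over summed library sizes is given with its exact 95% interval. Where wt had none, a floor of 3 reads was used. The interval covers counting error only, and the ratio against the floor leaves out the counting error of the mutant reads. Levels per kb are CPM divided by exon length. The rule for genes given in full took every called gene (at most the 14 with the highest mean CPM per comparison) and a panel by step; spe-19 and spe-48, outside it, were added after their values were seen, and spe-41 was put with the fertilization genes at that stage too. The values of 2 of the 29 genes are not reported here and not drawn gene by gene, while counts and sums include them. The genes and lists were chosen with earlier results of these data known. Alternatives were DESeq2 1.42.0, other size factors, no filter, fits without ribosomal and mitochondrial genes, fits of 2 groups, a replicate block, fits without each library and, added after seeing the data, scaling to reads outside ribosomal RNA.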

Additional observations from a re-analysis of the deposited data

How the results depend on the processing

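The number of spe and fer genes called higher in hda-3 against wt (17) ranged from 13 to 20 over fits without 1 library, and that against sin-3 (18) from 13 to 19. No called fold change of these genes changed sign in any setting tried. In sin-3 against wt, 2 genes were called higher with no filter on low counts (spe-11 and spe-18), and 0 to 2 over fits without 1 library. The lower call in sin-3 (spe-5) became 0 when only the 2 groups were fitted, and was 0 to 1 over fits without 1 library. Over all genes, calls in hda-3 against wt (1888) ranged from 1048 (without hda-3 replicate 4) to 2672. Those in sin-3 against wt (783) came to 1374 with no filter and 1203 with DESeq2, and ranged from 200 (without sin-3 replicate 4) to 1453 (without sin-3 replicate 3), with 222, 388 and 209 without wt replicates 3, 4 and 5 and 487 and 460 without hda-3 replicates 4 and 5. The cause was not tested.

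Libraries share only a replicate number between genotypes: deviations of same-numbered libraries had correlations from -0.200 to 0.292. With the replicate number as a block, 16 spe and fer genes were called higher in hda-3 against wt, 16 against sin-3, and 0 higher and 1 lower in sin-3 against wt. The depth limits the genes with 3 or fewer wt reads, whose ratios have wide intervals, and the 2 hda-3 libraries limit every hda-3 result.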
